A study of Mus musculus with 6 samples.

Results

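The genes described here are 51 DNA repair and Fanconi genes in haematopoietic stem cells (HSC) of wildtype and PU.1 knockdown mice. They were chosen by symbol: the Rad, Xrcc, Fanc, Ercc, Brca, Msh, Mlh and Xp names of a fixed pattern, with Atm, Atr, Chek1, Chek2, Parp1, Nbn, Mre11a (Mre11) and Prkdc. They are 51 of the 18186 genes with a probe set of their own, and 115 of the 44991 probe sets. Other genes that the pattern covers were not analysed here. For each gene the brightest probe set, by the mean over the 6 arrays, gave the gene's value. The difference between the 2 groups played no part in this choice of probe set.

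The samples were HSC sorted from bone marrow by flow cytometry, labelled WT HSC and PU.1 KD HSC, with 3 arrays per group and RNA pooled from 3 animals on each array. The arrays were Affymetrix Mouse Genome 430 2.0, read after 2 rounds of amplification. No treatment is named for either group. The strain and age of the mice, the way PU.1 was lowered and the surface markers of the sort are not given in these sources. PU.1 is the ETS transcription factor made from the gene Spi1, and myeloid and B lymphoid cells need it to develop.

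DNA repair proceeds by several routes. Damage is sensed by the kinases ATM and ATR, which act through CHEK1 and CHEK2 on the cell cycle. Breaks through both strands are rejoined either by homologous recombination, which copies a sister chromatid, or by end joining. The Fanconi proteins unhook crosslinks between the strands, and their inherited loss leads to bone marrow failure. Mismatch repair corrects replication errors, and nucleotide excision repair removes bulky lesions such as those of ultraviolet light.

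Values are log2(intensity + 16) after quantile normalisation, so the differences of weak genes are understated. Differences are knockdown minus wildtype. The mean of 37 of the 51 genes was higher in the knockdown pools and that of 14 was lower, and the median difference was 0.16. Over all 18186 genes, 53.4% had a higher mean in the knockdown pools and the median difference was 0.018. With the values as deposited, without normalisation, 30 of the 51 were higher and the median difference was 0.0857, beside 41.9% and a median of -0.0417 over all genes. Of the 51, 0 had a limma p under 0.05 after Benjamini-Hochberg adjustment over all probe sets. The smallest adjusted p among them was 0.558, and 0 of the 44991 probe sets (0%) passed. At an unadjusted limma p under 0.05, 6 members were higher and 0 lower, beside 4.1% of all genes higher and 3.52% lower. The 6 became 1 with the values as deposited, beside 2.5% of all genes, and 10 with 64 added in place of 16, beside 5.28%. They became 2 without knockdown pool 3, beside 3.04% of all genes. They became 3 without either wildtype pool 1 or knockdown pool 1, beside 2.95% and 2.93%.

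The groups did not overlap for 12 of the 51 genes, with all 3 knockdown pools above all 3 wildtype pools in each of the 12. Over all genes, 8.42% had the knockdown pools above and 5.39% had them below. With the values as deposited, the 12 became 8 above and 1 below, beside 5.54% and 8.29% of all genes. Among the 39 members with a mean above the median of genes, 28 were higher, beside 52.7% of all such genes. Of these 39, 9 had all knockdown pools above the wildtype pools, beside 9.62%, and 4 were higher at an unadjusted limma p under 0.05, beside 4.25%. In these bulk samples, fewer cells of a type and less RNA per cell cannot be told apart.

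The differences were small. Only Rad54b differed by more than 0.5, and the 95% interval of 49 of the 51 genes lay within a 2-fold change in either direction. The exceptions were Rad54b and Msh5. The standard error (SE) of the differences ran from 0.13 to 0.43, with a median of 0.17. The highest of the 6 values was found in a knockdown pool for 40 of the 51 genes, or 78.4%, beside 51.7% of all genes. Wildtype pool 1 held the highest value of 0 members and the lowest of 16, or 31.4%, beside 14.8% and 16.2% of all genes.

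**Figure D1:**
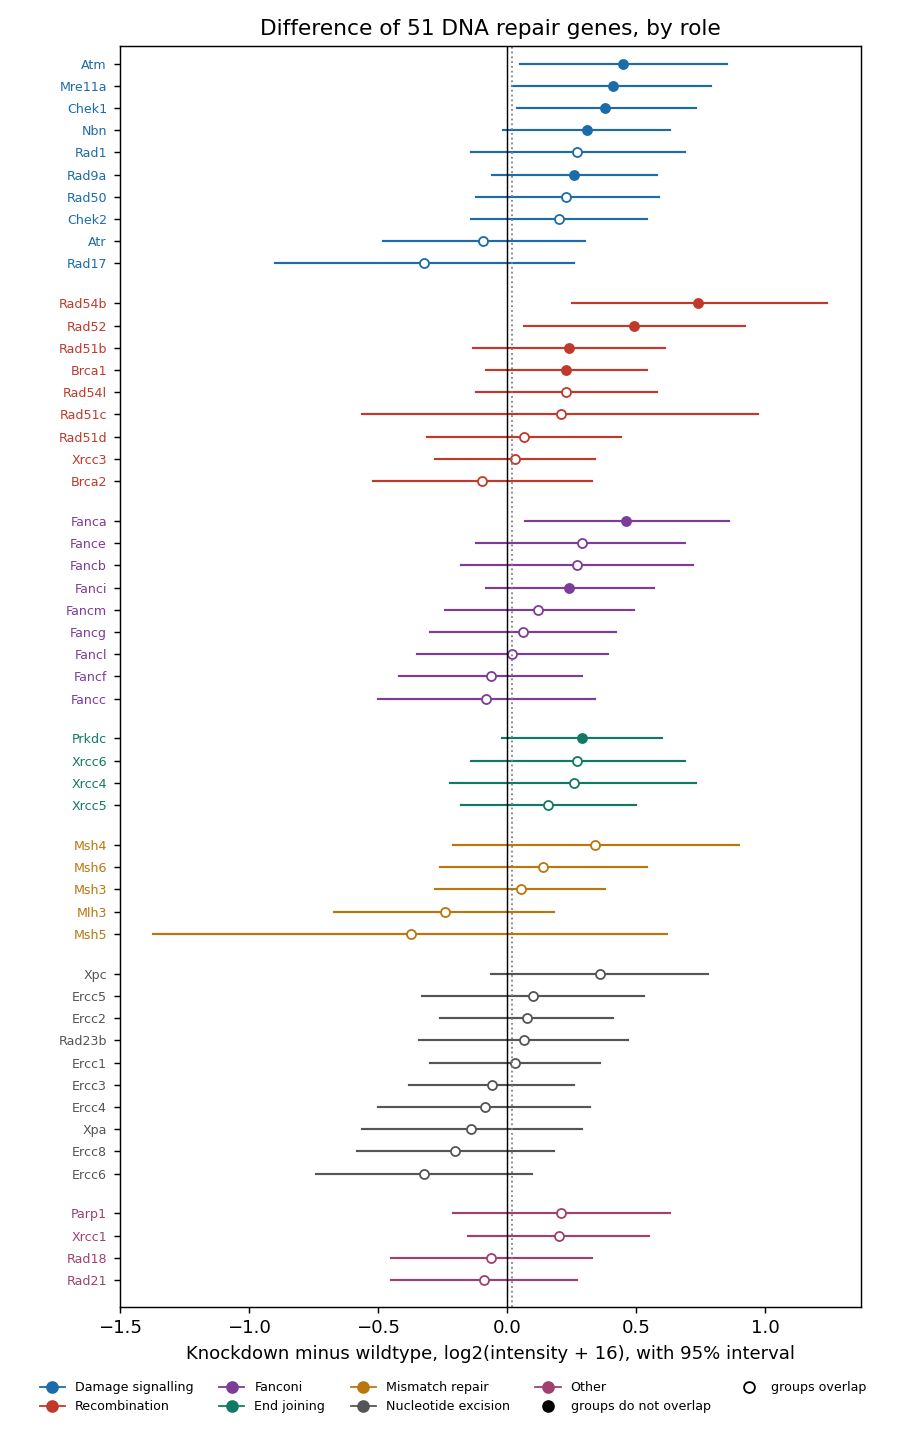
Difference between knockdown and wildtype (x axis, log2(intensity + 16)) for the 51 genes (y axis), grouped and coloured by role, with the 95% interval of the limma fit as a line. Filled points mark the 12 genes whose groups did not overlap, and the dotted line is the median of all genes, 0.018. The filled points all lie to the right of 0 and belong to damage signalling, recombination, Fanconi and end joining.

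The mean of 8 of the 10 sensing and signalling genes was higher in the knockdown pools. The median difference was 0.27. For 5 of the 10 all knockdown pools were above the wildtype pools, beside 8.42% of all genes. Atm encodes the kinase that responds to strand breaks. Wildtype pools 1, 2 and 3 had the values 8.27, 8.68 and 8.52, and knockdown pools 1, 2 and 3 had 9.09, 8.71 and 9.0, the order used below. The lowest knockdown pool, pool 2, lay just above the highest wildtype pool. The difference was 0.45 (SE 0.17), with a limma p of 0.0315 and an adjusted p of 0.675. A second Atm probe set (1421205_at) had 6.60, 6.44 and 6.53 in the wildtype pools and 7.32, 8.51 and 8.0 in the knockdown pools. Its difference of 1.42 (SE 0.28) was the largest of the 115 probe sets, and its limma p of 0.00101 had an adjusted p of 0.426. With both Atm sets averaged, the difference was 0.93 (limma p 0.000194, adjusted p 0.249).

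Chek1, the kinase activated by ATR at stalled replication forks, had 9.39, 9.63 and 9.65 in the wildtype pools and 9.79, 9.99 and 10.04 in the knockdown pools. All knockdown pools were above the wildtype pools, by a difference of 0.38 (SE 0.15, limma p 0.0339, adjusted p 0.676). This probe set (1449708_s_at) carries a suffix that Affymetrix gives to sets able to match related transcripts. The next brightest Chek1 set (1450677_at) differed by 0.29 (SE 0.24) with overlapping groups, and 4 of the 5 Chek1 sets had a higher mean in the knockdown pools. Atr itself, the kinase upstream, had 9.57, 9.90 and 9.78 against 9.41, 9.77 and 9.79, a difference of -0.092 (SE 0.17, limma p 0.6, adjusted p 0.935). The groups overlapped for Atr, and all 3 of its probe sets had a lower mean in the knockdown pools.

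Chek2, the kinase activated by ATM, had 8.83, 8.84 and 8.80 in the wildtype pools and 8.82, 9.15 and 9.09 in the knockdown pools. Knockdown pool 1 lay among the wildtype pools and the other two above them, and the difference was 0.20 (SE 0.15, limma p 0.212, adjusted p 0.823). The Chek2 promoter is shown because it was the only one of the members' promoters to hold both motifs searched. The RefSeq promoter table of GRCm38.p6 gave promoters for 42 of the 51 genes, and the 250 bases before each start site were searched on both strands. The E2F factors of S phase bind letters such as TTTGGCG. The variant TTTCCCG was searched as the same kind. So was the variant TTTCGCG, which can overlap the others. Letters of the kind bound by PU.1 were searched as GAGGAAG. The printed stretch is chr5:110839733-110839982 on the plus strand, with matches to either kind in capitals.
Chek2: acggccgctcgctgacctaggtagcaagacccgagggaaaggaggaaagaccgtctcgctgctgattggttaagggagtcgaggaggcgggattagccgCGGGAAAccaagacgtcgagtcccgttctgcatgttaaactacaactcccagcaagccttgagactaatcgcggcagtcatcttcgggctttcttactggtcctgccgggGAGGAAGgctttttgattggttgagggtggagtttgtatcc
The first capitals are TTTCCCG read on the other strand, 151 to 145 bases before the start, and the second are GAGGAAG, 41 to 35 bases before it. E2F-type letters were found for 7 of the 42 genes, or 16.7%, beside 5.27% of 27025 genes with a promoter in the table. PU.1-type letters were found for 5 of the 42, or 11.9%, beside 12% of these genes. A match is a description of the letters and not a site of binding. Members with E2F-type letters had a median difference of 0.06 and those without 0.14. For PU.1-type letters the medians were 0.08 with them and 0.14 without. Of the members with PU.1-type letters 3 of 5 were higher, beside 27 of 37 without.

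The 3 subunits of the complex that binds broken ends and activates ATM all had higher means in the knockdown pools. Mre11a, the nuclease, had 8.27, 8.12 and 8.51 in the wildtype pools and 8.88, 8.72 and 8.52 in the knockdown pools, so knockdown pool 3 lay barely above wildtype pool 3. The difference was 0.41 (SE 0.17, limma p 0.0414, adjusted p 0.689). A second Mre11a probe set (1441990_at) went the other way, with a difference of -0.24 (SE 0.14) and all knockdown pools below the wildtype pools. Nbn, the adaptor of the complex, had 8.48, 8.42 and 8.37 against 8.87, 8.72 and 8.60, a difference of 0.31 (SE 0.14) without overlap (limma p 0.0602, adjusted p 0.717). Rad50, its ATPase, differed by 0.23 (SE 0.15), and its groups overlapped at a value near 9.50 in wildtype pool 3 and 9.49 in knockdown pool 3.

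The sliding clamp that helps activate ATR, formed by RAD9A, RAD1 and HUS1, was mixed. Rad9a differed by 0.26 (SE 0.14) without overlap, and Rad1 by 0.27 (SE 0.18) with overlap. Rad17, which loads the clamp, had 9.41, 9.36 and 9.66 in the wildtype pools and 8.58, 9.41 and 9.48 in the knockdown pools. Its difference of -0.32 (SE 0.25) came from knockdown pool 1, without which it was -0.033. Hus1, outside the 51, followed the same layout on its brightest probe set, with 8.91, 9.02 and 9.10 against 8.31, 9.04 and 9.14. Its 2 probe sets disagreed, with differences of -0.18 and 0.24.

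**Figure D2:**
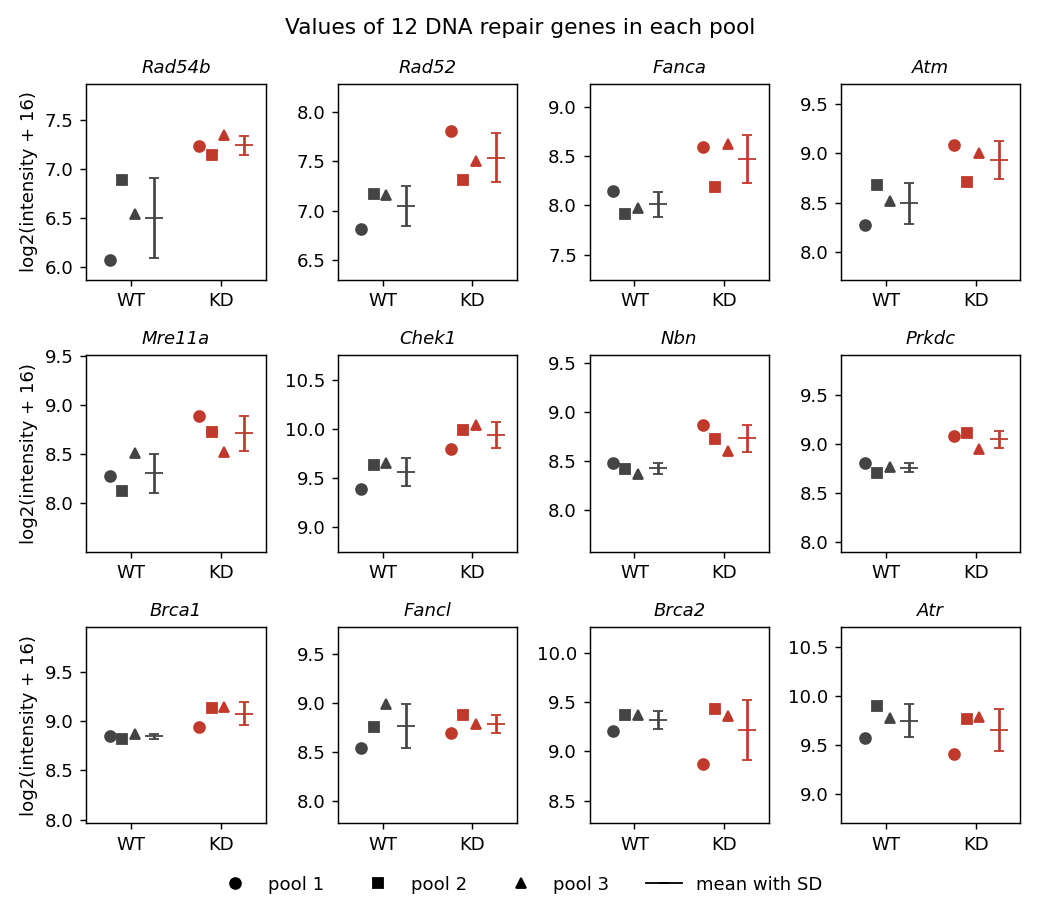
Log2(intensity + 16) of 12 repair genes (y axis, each panel spanning 2 units) in the 3 wildtype (WT) and 3 PU.1 knockdown (KD) pools (x axis), with circles, squares and triangles for pools 1, 2 and 3 and the mean with SD beside them. The knockdown pools lie above the wildtype pools from Rad54b to Brca1, while Fancl, Brca2 and Atr overlap.

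Recombination genes had higher means in 8 of 9 cases, with a median difference of 0.23. For 4 of the 9 all knockdown pools were above the wildtype pools, beside 8.42% of all genes. With the values as deposited, 6 of the 9 were higher. Rad54b, a DNA translocase related to RAD54, had the largest difference of all members. It measured 6.07, 6.88 and 6.54 in the wildtype pools and 7.23, 7.14 and 7.34 in the knockdown pools. The knockdown pools lay close together above the wildtype pools, which spread by an SD of 0.41. The difference was 0.74 (SE 0.21, 95% interval 0.25 to 1.24), with a limma p of 0.00884, an adjusted p of 0.558 and an exact permutation p of 0.1, the smallest that 3 against 3 allows. Rad54b has 1 probe set, with a mean below the median of genes.

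Rad52, which anneals single strands, had 6.81, 7.17 and 7.16 in the wildtype pools and 7.81, 7.31 and 7.5 in the knockdown pools. The groups did not overlap, and the difference was 0.49 (SE 0.18, limma p 0.029, adjusted p 0.667). Its other probe set differed by 0.07 (SE 0.21) with overlap. Brca1, which directs broken ends into recombination, had 8.85, 8.82 and 8.87 against 8.94, 9.14 and 9.15. Its wildtype pools agreed within an SD of 0.026, all knockdown pools were above them, and the difference was 0.23 (SE 0.13, limma p 0.126, adjusted p 0.776). All 4 Brca1 probe sets had a higher mean in the knockdown pools, and on 1424630_a_at, a dim set, the difference was 0.49 (SE 0.18).

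Brca2, a recombination mediator and also a Fanconi gene, went the other way in the mean. It had 9.21, 9.37 and 9.37 in the wildtype pools and 8.87, 9.43 and 9.36 in the knockdown pools, a difference of -0.097 (SE 0.18, limma p 0.61, adjusted p 0.936). Only knockdown pool 1 was below the wildtype pools, and without it the difference was 0.08. Rad54l, the RAD54 translocase, differed by 0.23 (SE 0.15) with overlap, and its set 1423124_x_at by 0.40 (SE 0.16) without overlap.

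Rad51b, Rad51c, Rad51d and Xrcc3, whose products assist strand exchange, did not share a pattern. Rad51b differed by 0.24 (SE 0.16) without overlap, although its lowest knockdown value, 7.19, was next to its highest wildtype value, 7.18. Rad51c had 7.91, 7.61 and 7.55 against 7.09, 8.44 and 8.15, so that pool 1 was the lowest of all and the other knockdown pools the highest. Its difference of 0.21 (SE 0.33) ran from -0.072 to 0.61 when 1 array was left out. Rad51d differed by 0.067 (SE 0.16) and Xrcc3 by 0.032 (SE 0.13), and both were lower with the values as deposited, by -0.011 and -0.044.

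Knockdown pool 1 had the lowest of the 6 values for 10 of the 51 genes: Atr, Brca2, Ercc4, Ercc6, Ercc8, Msh3, Rad17, Rad21, Rad23b and Rad51c. Over all genes, 18.4% were lowest in that pool, close to the 19.6% of the members. It was also the highest pool for 15 members, or 29.4%, beside 23.6% of all genes. Xpc, Atm, Rad50 and Mre11a, at 8.88, were among them.

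Fanconi genes had higher means in 7 of 9 cases, with a median difference of 0.12. For 2 of the 9 all knockdown pools were above the wildtype pools, beside 8.42% of all genes. With the values as deposited, 5 of the 9 were higher. Fanca, a core complex subunit and the gene most often lost in Fanconi anaemia, had 8.15, 7.91 and 7.97 in the wildtype pools and 8.60, 8.19 and 8.63 in the knockdown pools. Knockdown pool 2 was just above wildtype pool 1, and the difference was 0.46 (SE 0.17, 95% interval 0.068 to 0.86, limma p 0.0272, adjusted p 0.662). Its second probe set differed by 0.20 (SE 0.15) with overlap. Fanci, whose product is loaded onto DNA with FANCD2, had 7.93, 7.97 and 8.14 against 8.20, 8.19 and 8.38, a difference of 0.24 (SE 0.14) without overlap. Fancd2, outside the 51, differed by -0.10 (SE 0.18), with 2 of its 4 probe sets higher.

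The Fanca promoter is shown because Fanca had the largest difference of the Fanconi genes and its promoter holds PU.1-type letters. The stretch is chr8:123318577-123318826 on the minus strand, written 5′ to 3′ along the gene, with GAGGAAG in capitals 110 to 104 bases before the start.
Fanca: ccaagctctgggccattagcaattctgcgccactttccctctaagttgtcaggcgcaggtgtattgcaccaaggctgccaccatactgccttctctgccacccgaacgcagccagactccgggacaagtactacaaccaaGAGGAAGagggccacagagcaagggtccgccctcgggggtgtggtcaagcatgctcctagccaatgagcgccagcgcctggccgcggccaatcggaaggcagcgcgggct
It held none of the E2F-type letters. Fancc, the other Fanconi gene with PU.1-type letters, differed by -0.08 (SE 0.18) with overlap.

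The groups of the other core complex genes overlapped on the probe sets used. Fance and Fancb differed by 0.29 (SE 0.18) and 0.27 (SE 0.19). Fancm, the translocase that anchors the complex to DNA, differed by 0.12 (SE 0.16) and Fancg by 0.063 (SE 0.16). All 3 Fancm probe sets had a higher mean in the knockdown pools. On 1442106_at, a dim set, the difference was 0.48 (SE 0.18) without overlap. With the Fancm sets averaged it was 0.32 (limma p 0.0247, adjusted p 0.548). Fancl encodes the ubiquitin ligase that modifies FANCD2. It had 8.54, 8.76 and 8.99 in the wildtype pools and 8.69, 8.88 and 8.79 in the knockdown pools, so the knockdown pools lay inside the wildtype range. Its difference was 0.019 (SE 0.16, 95% interval -0.35 to 0.39, limma p 0.907, adjusted p 0.988). Fancf differed by -0.061 (SE 0.15).

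All 4 end joining genes had a higher mean in the knockdown pools, with a median difference of 0.27, and this count held with the values as deposited. Prkdc, the catalytic subunit of DNA-dependent protein kinase, had 8.81, 8.71 and 8.77 in the wildtype pools and 9.08, 9.12 and 8.95 in the knockdown pools. The groups did not overlap, and the difference was 0.29 (SE 0.13, limma p 0.0629, adjusted p 0.721). Xrcc6 and Xrcc5 encode the Ku proteins that hold the broken end. Xrcc6 had 9.32, 9.83 and 9.53 against 9.97, 9.90 and 9.63, a difference of 0.27 (SE 0.18, limma p 0.17, adjusted p 0.803) with overlap at knockdown pool 3. Xrcc5 had 8.02, 8.37 and 8.13 against 8.27, 8.4 and 8.34, a difference of 0.16 (SE 0.15, limma p 0.304, adjusted p 0.853), also with overlap. Xrcc4, the partner of the ligase LIG4, differed by 0.26 (SE 0.20) on one probe set and -0.26 (SE 0.21) on the other. Lig4, outside the 51, was lower in all knockdown pools, with a difference of -0.52 (SE 0.15, limma p 0.00813, adjusted p 0.555).

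The Xrcc6 promoter is the one end joining promoter with E2F-type letters. The stretch is chr15:82016119-82016368 on the plus strand, and the capitals are TTTCCCG read on the other strand, 45 to 39 bases before the start.
Xrcc6: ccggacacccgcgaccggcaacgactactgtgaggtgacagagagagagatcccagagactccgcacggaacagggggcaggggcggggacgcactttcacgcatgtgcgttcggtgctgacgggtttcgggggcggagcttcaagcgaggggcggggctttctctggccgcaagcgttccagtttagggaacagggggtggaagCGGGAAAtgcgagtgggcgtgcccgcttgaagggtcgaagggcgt
No PU.1-type letters were in this window.

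**Figure D3:**
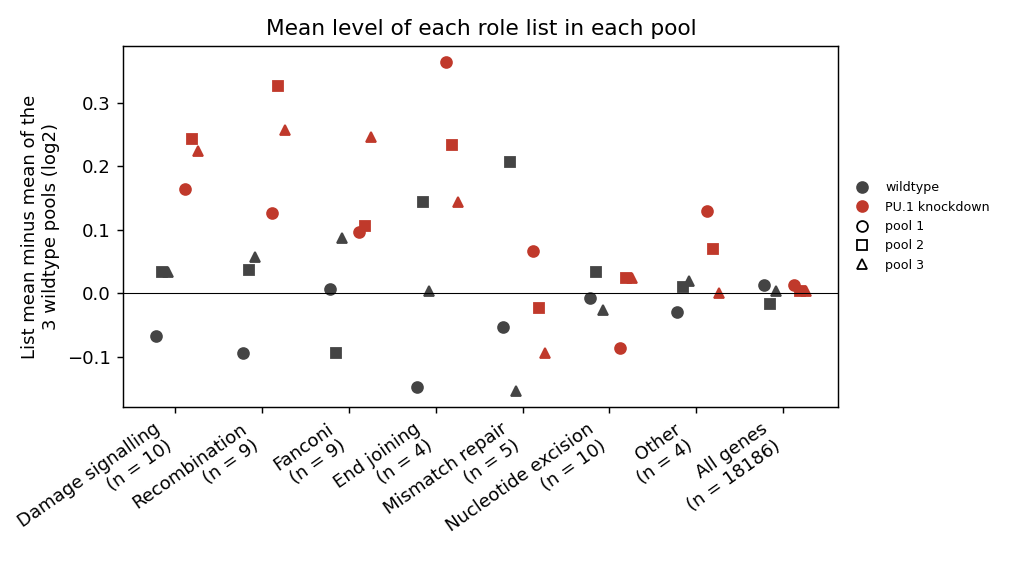
Mean log2(intensity + 16) of the members of each role in each pool, minus the mean of the 3 wildtype pools (y axis), for the 7 roles and all genes (x axis). The knockdown pools (red) lie above the wildtype pools (grey) for damage signalling, recombination and Fanconi genes, and the pools are mixed for nucleotide excision genes.

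The mismatch repair list, which includes the meiotic genes Msh4 and Msh5, was spread on both sides. In it 3 of 5 were higher, the median difference was 0.053 and the groups of all 5 overlapped. Msh6, which recognises single-base mismatches, had the difference 0.14 (SE 0.17), and Msh3, which recognises loops, 0.053 (SE 0.14). Mlh3, of the meiotic mismatch complex, differed by -0.24 (SE 0.18). Msh4, a meiotic gene at a level among the dimmest 5.69% of genes, differed by 0.34 (SE 0.24), the largest positive value of the list. Msh5, its meiotic partner, varied most of all members, with 9.0, 10.21 and 9.24 in the wildtype pools and 9.93, 8.42 and 8.99 in the knockdown pools. Wildtype pool 2 and knockdown pool 1 were high on its second probe set too, at 7.6 and 7.5 beside 6.40 to 6.77 in the other pools. The difference was -0.37 (SE 0.43, limma p 0.411, adjusted p 0.888).

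Nucleotide excision genes were evenly divided, with 5 of 10 higher, a median difference of -0.012 and overlapping groups for all 10. With the values as deposited, 3 of the 10 were higher. Xpc, which recognises the lesion, had 10.23, 10.17 and 10.05 in the wildtype pools and 10.73, 10.16 and 10.64 in the knockdown pools. Knockdown pool 2 stayed among the wildtype pools while the other two were above them, and the difference was 0.36 (SE 0.18, limma p 0.0859, adjusted p 0.743). Rad23b, the partner of XPC, differed by 0.064 (SE 0.17). The helicase genes Ercc2 and Ercc3 differed by 0.076 (SE 0.14) and -0.057 (SE 0.14). The nuclease genes Ercc1, Ercc4 and Ercc5 differed by 0.032 (SE 0.14), -0.087 (SE 0.18) and 0.099 (SE 0.19).

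Xpa, the scaffold of the excision complex, had 7.54, 8.13 and 7.67 in the wildtype pools and 7.6, 7.58 and 7.75 in the knockdown pools, a difference of -0.14 (SE 0.18, limma p 0.475, adjusted p 0.905). Wildtype pool 2 was the highest, and without it the difference was 0.038. Ercc6 and Ercc8 couple excision to transcription and underlie Cockayne syndrome. Ercc6 differed by -0.32 (SE 0.18), at a level among the dimmest 11.8% of genes, and Ercc8 by -0.20 (SE 0.16).

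Of the remaining members, Parp1, the sensor of single-strand breaks, had 10.26, 10.57 and 10.45 in the wildtype pools and 10.89, 10.68 and 10.34 in the knockdown pools. The groups overlapped because knockdown pool 3 was the second lowest value, and the difference was 0.21 (SE 0.18, limma p 0.28, adjusted p 0.844). Over its 4 probe sets the differences ran from -0.37 to 0.21. Xrcc1, the scaffold of single-strand break repair, differed by 0.20 (SE 0.15). Rad18, a ubiquitin ligase of damage tolerance, differed by -0.061 (SE 0.17), and the cohesin gene Rad21 by -0.089 (SE 0.16).

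Read by role after the values were seen, the signalling, recombination, Fanconi and end joining genes had 27 of 32 higher with a median difference of 0.24. The other 19 genes had 10 higher with a median of 0.032. All 12 genes without overlap and all 6 with an unadjusted limma p under 0.05 were among the 32. The difference between these roles was not tested, and a second list of repair genes, described after the probe sets, had the opposite order.

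Several genes had probe sets that disagreed. Of the 35 members with more than 1 probe set, 14 had the same sign on all of them. Of the 64 probe sets not used for the gene values, 35 had a higher mean in the knockdown pools, with a median difference of 0.03. Over all genes, each by its brightest set, 53.4% were higher, with a median of 0.018. Of these 64, 30 were above the median level of all probe sets, and 18 of the 30 were higher, with a median of 0.05. The groups did not overlap with the knockdown pools above for 6 of the 64, beside 7.59% of all probe sets, and below for 1, beside 5.26%. At an unadjusted limma p under 0.05, 4 of the 64 were higher, beside 3.78%. The count of 37 of 51 thus describes the brightest probe set of each gene. With the mean of all probe sets of a gene, 36 of 51 were higher, with a median of 0.0975, beside 54.5% and 0.0206 over all genes. That mean includes the brightest set, and for the 16 members with 1 probe set it is the same value. On it, Atm, Fanca and Rad54b kept an unadjusted limma p under 0.05, and Fancm, Nbn and Prkdc came under it. Chek1 (0.16, limma p 0.353), Mre11a (0.085, limma p 0.534) and Rad52 (0.28, limma p 0.117) no longer had one. Xrcc4 then differed by 0.00082 and Xrcc6 by 0.08.

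**Figure D4:**
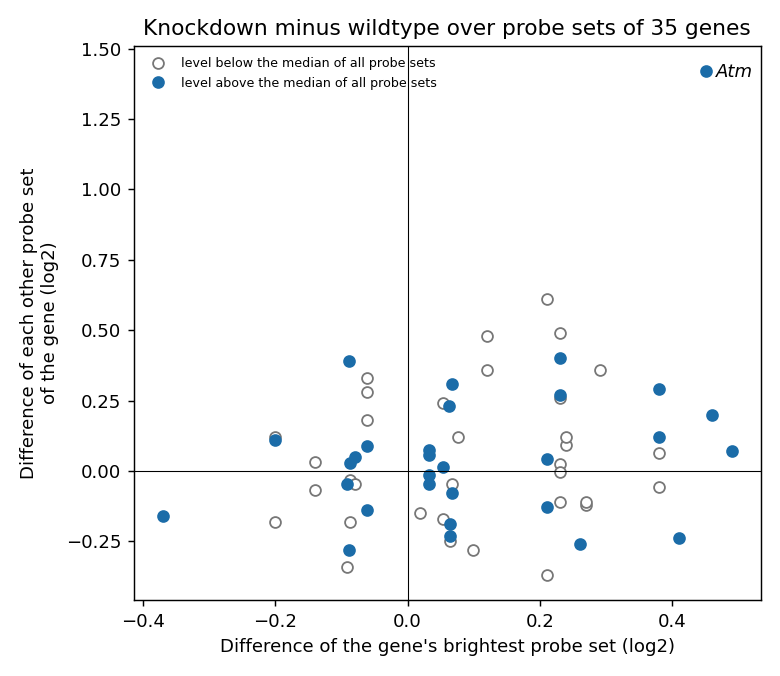
Knockdown minus wildtype difference (log2) of the brightest probe set of a gene (x axis) against that of each other probe set of the same gene (y axis), for the 35 genes with more than 1. Open points are probe sets below the median level of all probe sets. Points lie on both sides of 0 on the y axis, and the second Atm set stands apart at 1.42.

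A second list of 100 repair genes outside the members had 89 with a probe set. Of these, 57 were higher in the knockdown pools and 32 lower, with a median difference of 0.063, and 0 passed the adjusted limma threshold. At an unadjusted limma p under 0.05, 7 were higher and 1 lower, beside 4.1% and 3.52% of all genes. The groups did not overlap for 24 with the knockdown pools above and 2 below, beside 8.42% and 5.39%. Ogg1, the glycosylase for oxidised guanine, differed by 0.66 (SE 0.17, limma p 0.00472, adjusted p 0.526). The recombination nuclease gene Exo1 differed by 0.48 (SE 0.15) and Faap100, of the Fanconi core complex, by 0.43 (SE 0.16), both without overlap. By role, 10 of 12 further recombination genes were higher, 5 of 13 of damage signalling, 7 of 14 Fanconi and crosslink genes and 3 of 6 of end joining. The counts were 4 of 4 for mismatch repair, 10 of 12 for nucleotide excision, 14 of 19 for base excision and direct reversal and 4 of 9 for translesion synthesis. Grouped as the members were, the signalling, recombination, Fanconi and end joining genes had 25 of 45 higher and the other roles 32 of 44, so the order of the 2 groups of roles was the opposite of that of the members.

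Many repair genes are expressed with S phase, so markers of dividing cells are given beside them. Of 17 S phase and mitosis genes, 11 were higher in the knockdown pools, with a median difference of 0.078 and 0 at an unadjusted limma p under 0.05. For 2 of the 17, Mcm6 and Mcm7, all knockdown pools were above the wildtype pools, beside 8.42% of all genes. Their mean was 10.55, 10.42 and 10.65 in the wildtype pools and 10.52, 10.63 and 10.64 in the knockdown pools, so the groups overlapped. Wildtype pool 2 was the lowest. The recombination genes, with means of 7.93, 8.06 and 8.08 against 8.15, 8.35 and 8.28, had another order of pools. The Fanconi genes had means of 7.81, 7.71 and 7.89 against 7.9, 7.91 and 8.05. Within each group their pools were in the same order as those of the S phase and mitosis genes. The part of dividing cells in the repair gene values was not tested.

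Spi1 had 10.13, 9.42 and 10.08 in the wildtype pools and 8.73, 8.55 and 7.06 in the knockdown pools. The difference was -1.76 (SE 0.43, limma p 0.00364, adjusted p 0.503) without overlap, so Spi1 itself did not pass the adjusted threshold. Median intensity per array ran from 81.4 to 91.5 as deposited. The stem cell list (10 of 12 markers matched, Kit, Cd34 and Procr among them) had means of 9.32, 10.07 and 9.39 in the wildtype pools and 9.26 to 9.47 in the knockdown pools. Of these 10, 7 were lower in the knockdown pools and 3 higher, with a median difference of -0.21. Tek was lower in all knockdown pools, by -0.99 (SE 0.21, limma p 0.00154, adjusted p 0.458). Mecom differed by -0.82 (SE 0.34, limma p 0.0426, adjusted p 0.69) with overlap. Other lists differed between pools: neutrophil means ran from 10.97 (wildtype pool 2) to 12.52, and platelet means were 9.13 to 10.39 in the wildtype and 7.10 to 9.09 in the knockdown pools. B lymphoid means were 7.57 to 7.76 and 6.65 to 7.84, T and NK means 6.61 to 6.64 and 6.71 to 6.87, and macrophage and dendritic means 8.77 to 9.28 and 8.07 to 8.90. Erythroid means were 8.63 to 9.77 and 9.17 to 10.16, and stromal and endothelial means 6.72 to 8.33 and 6.85 to 8.16. Groups without overlap were found for 3 of 7 platelet genes (all below) and 2 of 8 neutrophil genes (both above). Of 7 B lymphoid genes, 1 was above and 2 were below. The stem cell, macrophage and dendritic, and stromal and endothelial lists (10, 8 and 7 genes) each had 1 below. The T and NK and the erythroid lists (6 genes each) each had 1 above. Over all genes, 8.42% had the knockdown pools above and 5.39% had them below. Eosinophil and mast cell means were 7.26 to 8.77 and 7.91 to 8.35. Of the 7 genes in that list, 3 had all knockdown pools above and 2 all below, beside 8.42% and 5.39% of all genes. The eosinophil granule genes Epx and Prg2 were lower in all knockdown pools, by differences of -3.69 (SE 0.88) and -3.06 (SE 0.74). Cpa3 and Mcpt8, of mast cells and basophils, were higher in all of them, by 2.05 (SE 0.35) and 1.71 (SE 0.46). So was Gzmb, of the same list, by 2.69 (SE 0.53). Fcer1a and Ms4a2, the remaining genes of the list, differed by 0.65 (SE 0.67) and 0.1 (SE 0.27) with overlap. The smallest adjusted limma p of the 5 genes of this list without overlap was 0.382. The part of these marker genes in the repair gene values was not tested.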

How the data were processed

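The authors deposited 1 table with the processed intensity of each of 44991 probe sets on 6 arrays, without logarithms. No source here gives the software or scaling behind these deposited intensity values, and 264 to 409 values per array were below 0. Anything below 1 was raised to 1, 16 was added and the result was put on the log2 scale. The array medians on that scale ran from 6.61 to 6.75, and the arrays were quantile normalised. The limma package (version 3.58.1, R 4.3.3) fitted every probe set by lmFit and eBayes. Its two-sided p-values, on 7.81 degrees of freedom, were adjusted by Benjamini-Hochberg across the table, with a threshold of 0.05. The fit was tested on simulated data. Exact permutation tests used the 6 log2 values. Replicates were pools of separate animals, and their number limits the precision.

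Names came from the annotation of the platform, where 34921 had 1 symbol, 930 several and 9140 none; RefSeq's gene list for GRCm38.p6 held all 51 members, and the separate promoter sequences covered 42 of them. Members, role lists, marker lists and tests were chosen with earlier results of these data known. Every member could be named. Values in all pools were to be given for members with an unadjusted p under 0.05, for those without overlap that differed by at least 0.5, and for central members of each route. The extremes of each role were also named, and from the second list up to 3 genes of smallest p in each direction.

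Same-numbered pools did not pair: their deviations from the group means correlated at 0.178, 0.061 and -0.0392. Alternatives were other scalings, a pseudocount of 1 or 64, dim probe sets left out below the 40th or 60th percentile, averaged probe sets, other variance models, array weights, the replicate number as a block, and each array left out. Plots used matplotlib 3.10.9 under Python 3.11.15.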

Additional observations from a re-analysis of the deposited data

How the results depend on the processing

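Under all 18 alternatives 0 members passed the adjusted threshold, with a smallest adjusted p of 0.249 (Atm, mean of all probe sets). The median difference over the members stayed positive, from 0.0857 to 0.198, and the number of members higher ran from 30 to 39 (43 to 51 members tested). The count higher at an unadjusted limma p under 0.05 moved from 6 to 1 with the values as deposited, beside 2.5% of all genes. It was 10 with a pseudocount of 64, beside 5.28%, and 3 with the replicate block, beside 3.55%. With 1 array left out it ran from 2 (without knockdown pool 3, beside 3.04%) to 5 (without knockdown pool 2, beside 3.7%). The count lower was 1 without knockdown pool 2, beside 3.53% of all genes, and 0 otherwise. The replicate block does not rest on a pairing, since the pools shared only a number, and knockdown pool 3 and wildtype pools 2 and 3 did not correlate best with their own number. Of the 51 members, 31 kept their sign in every alternative that measured them, 26 of them higher and 5 lower. Signs reversed to -0.046 for Ercc1, -0.0085 for Ercc2, -0.024 for Fancg, -0.051 for Fancl, -0.025 for Msh3, -0.011 for Rad51d and -0.044 for Xrcc3 with the values as deposited; to -0.09 for Ercc5, 0.13 for Fancf, -0.064 for Fancl, -0.061 for Parp1, 0.053 for Rad18, 0.0074 for Rad21 and -0.15 for Rad23b with averaged probe sets; and to -0.018 for Ercc1 and 0.0061 for Ercc4 with array weights. With 1 array left out, the differences that changed sign ran from -0.18 to 0.033 for Atr, -0.2 to 0.08 for Brca2, -0.031 to 0.096 for Ercc1, -0.0099 to 0.14 for Ercc2, -0.1 to 0.014 for Ercc3, -0.18 to 0.066 for Ercc4, -0.026 to 0.28 for Ercc5, -0.22 to 0.016 for Fancc, -0.022 to 0.16 for Fancg, -0.092 to 0.13 for Fancl, -0.19 to 0.07 for Rad18, -0.18 to 0.028 for Rad21, -0.044 to 0.2 for Rad23b, -0.072 to 0.61 for Rad51c, -0.026 to 0.21 for Rad51d, -0.26 to 0.038 for Xpa and -0.024 to 0.064 for Xrcc3. The cause of these changes was not tested. Signal over background limits the dimmest members, Msh4 and Ercc6, whose probe sets both filters removed.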
